A study of Mus musculus with 32 samples.

Results

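The mRNAs of the 4 Dlg genes, Dlg1, Dlg2, Dlg3 and Dlg4, were followed in the soma and neurites of cultured mouse hippocampal neurons. The members were chosen by gene symbol, and they are 4 of the 55573 genes in the deposited count table. The neurons came from newborn pups of both sexes, pooled by litter, and were grown on porous membrane inserts, so that the top of the membrane gave the soma fraction and the underside the neurite fraction. The soma side can also hold neurites that did not cross the membrane. WT neurons were C57BL/6 and Mettl3 KO neurons came from Mettl3 flox/flox pups. Both received AAV-hSyn-Cre-P2A-dTomato (50000 viral genomes per cell) at day 7 in culture, so that the WT controls also carried Cre, driven by the neuronal synapsin promoter. Synaptic activity was silenced in all cultures with TTX (1 µM) and D-AP5 (50 µM) over 16 h. On day 15 they were left untreated (Ctrl) or depolarized with 55 mM KCl for 2 h. Each of the 8 groups (genotype, fraction and treatment) held 2 RNA-seq libraries. The replicates of a group came from distinct litters. Another 16 libraries were used for DART-seq, in which a fusion of the APOBEC1 deaminase with an m6A-binding YTH domain converts cytidines next to m6A to uridine (C2U).

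The Dlg genes encode the membrane-associated guanylate kinases SAP97 (Dlg1), PSD-93 (Dlg2), SAP102 (Dlg3) and PSD-95 (Dlg4). Each protein strings PDZ domains, an SH3 domain and a catalytically inactive guanylate kinase domain together, and holds glutamate receptors, potassium channels and adhesion molecules in the postsynaptic density through these domains. PSD-95 is the most studied scaffold of excitatory synapses in the forebrain, SAP102 is known as the family member of young synapses, and the Dlg4 mRNA is a known dendritic mRNA that is bound by the fragile X protein.

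DART-seq sites were found in 3 of the 4 mRNAs. Dlg3 held 13 sites, Dlg2 held 8, Dlg4 held 6, and Dlg1 was not listed among the 5643 RNAs with a site. For comparison, the median RNA with a site held 2. The sequences around the 3 sites with the highest editing in each mRNA are given so that the strong sites of Dlg2 can be seen beside the weak sites of Dlg4. Each is a window of 21 bases of GRCm38, plus strand, with the edited C in the middle and the GAC or AAC triplet that ends in it in capitals. The A before that C is the position read as m6A. All 27 sites lay in one of these triplets, which the authors required of a site. The longer m6A consensus DRACH (D is A, G or U, R is A or G, H is A, C or U) was not required. It was met by 15 of the 27 sites, and not by the strongest Dlg3 site.
Dlg2, chr7:91940041-91940061: ttcctggaGACaacagcatct
Dlg2, chr7:92375616-92375636: aatatggaGACatccttcatg
Dlg2, chr7:92386937-92386957: cgattgaaGACagtgaagttc
Dlg3, chrX:100817758-100817778: tagactttAACgctgtaaatt
Dlg3, chrX:100773389-100773409: ctccccctGACtatgccagca
Dlg3, chrX:100813379-100813399: accgagtcAACgatgacctca
Dlg4, chr11:70044982-70045002: cacacacaGACccactggggg
Dlg4, chr11:70039203-70039223: tgggcttcAACattgtgggcg
Dlg4, chr11:70039221-70039241: gcggcgagGACggtgaaggca

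The 3 strongest Dlg2 sites were coding. They lay in exons 7, 15 and 16 of the 23 exons of the reference transcript, 1899, 858 and 721 bases before the last coding base. Their C2U values, which are the authors' averages over the 8 WT libraries, were 14.8%, 12.9% and 12.8%. The other 5 Dlg2 sites ranged from 2.58% to 6.97%, and 4 of the 8 sites were in the 3′UTR, the nearest of them 1438 bases past the last coding base.

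In Dlg3, the strongest site (11.8%) was in the 3′UTR, 1446 bases past the last coding base in exon 19, the last exon. The second (9.35%) was coding, in exon 6, and the third (5.93%) was coding, in exon 15. Of the 13 sites, 7 were coding in the reference transcript, 4 were in the 3′UTR and 1 was in the 5′UTR. The remaining site (3.76%) lay in an exon that the reference transcript skips and 2 other protein-coding transcripts use as coding sequence. Per kilobase of exon, counted over all annotated transcripts, Dlg3 held 2.22 sites against 0.485 in Dlg2 and 0.453 in Dlg4. This length was 5844 bases for Dlg3, 16480 for Dlg2 and 13251 for Dlg4. It can differ from that of the mRNA expressed, so the comparison is approximate.

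Dlg4 was edited least. Its strongest site (3.56%) was in the 3′UTR, 300 bases past the last coding base in exon 20, the last exon. The others were all coding in the reference transcript, at 2.22%, 1.01%, 0.959%, 0.706% and 0.637%, and the site at 0.706% was 2 bases before the last coding base. The median of the 6 Dlg4 sites (0.987%) was above 6.23% of the 18231 sites listed for all RNAs, the median of the 8 Dlg2 sites (5.94%) above 74.0%, and the median of the 13 Dlg3 sites (3.76%) above 53.0%.

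**Figure D1:**
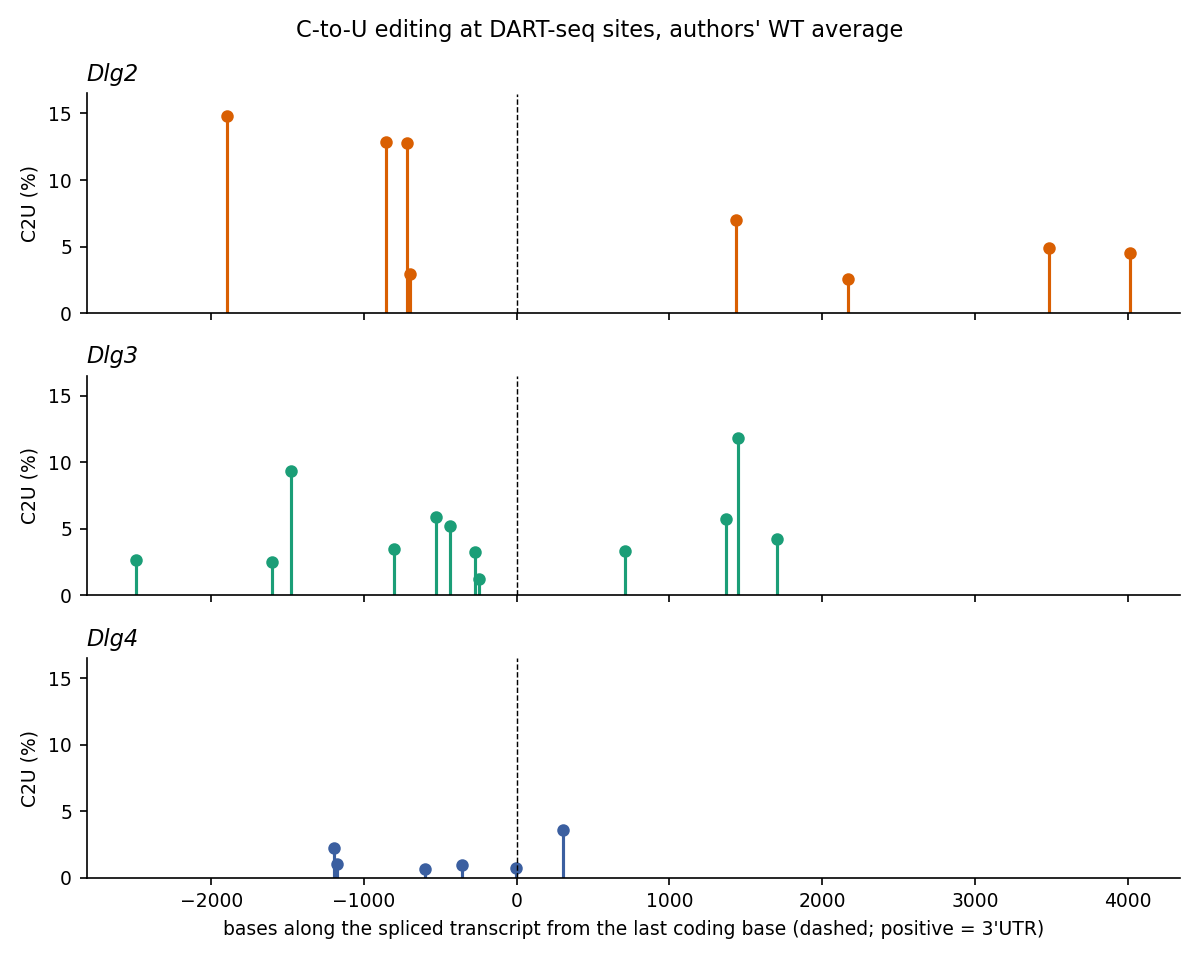
C2U editing in percent (authors' average over 8 WT libraries) at the DART-seq sites of Dlg2, Dlg3 and Dlg4, against the distance in bases along the spliced reference transcript from the last coding base (dashed line). The Dlg2 sites reach 14.8%, while no Dlg4 site exceeds 3.56%. The Dlg3 site outside the reference transcript is not drawn, and there are no error bars because the values are averages without replicates.

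Depth bears on how many sites are found, since the calls needed a minimum number of reads at a position. A minimum number of edited reads was also needed, so sites of low percentage can be called only where depth is high. Dlg4 had a mean of 10060 counts over the WT RNA-seq libraries. The part of depth in the low values of its sites was not tested. Dlg1 had a mean of 308 counts over the WT RNA-seq libraries. Of the 1681 protein-coding genes within 1.5-fold of that mean, 10.1% had a site, against 23.2% at the level of Dlg3, 86.4% at the level of Dlg2 and 86.8% at that of Dlg4. No site in Dlg1 is therefore not a measurement of no m6A. Dlg3 had 762 counts on average, yet 98.8% of RNAs with a site had fewer sites than its 13.

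The authors' score per mRNA sums the C2U averages over its sites. In WT the score was 64.3% for Dlg3, 58.0% for Dlg2 and 7.55% for Dlg4, beside a median of 10.3% over all RNAs with a site. The values listed site by site sum to 62.6%, 62.3% and 9.09%, so the score was not made from exactly these averages. In Mettl3 KO the scores were 23.6%, 18.0% and 3.504%, so that WT exceeded Mettl3 KO by 2.73-fold, 3.22-fold and 2.15-fold. The median over all RNAs was 3.10-fold. Sites were selected for higher editing in WT than in Mettl3 KO, so this direction was set by the selection.

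All 3 mRNAs had higher scores in WT neurites than in WT soma. The scores were 10.4% in neurites and 3.94% in soma for Dlg4 (2.65-fold), 85.3% and 51.6% for Dlg3 (1.65-fold), and 62.2% and 52.2% for Dlg2 (1.19-fold). The ratio of Dlg4 was above that of 88.6% of 5594 RNAs and the ratio of Dlg2 above 43.2%. Over all these RNAs the median ratio was 1.30 and 68.5% were higher in neurites. The soma score of Dlg4 (3.94%) was close to its Mettl3 KO score (3.504%), so its ratio has a denominator near the editing left without Mettl3. The soma scores of Dlg3 and Dlg2 were well above their Mettl3 KO scores (23.6% and 18.0%). These scores average over Ctrl and KCl libraries and come without replicates or read depth, so no difference in them was tested.

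**Figure D2:**
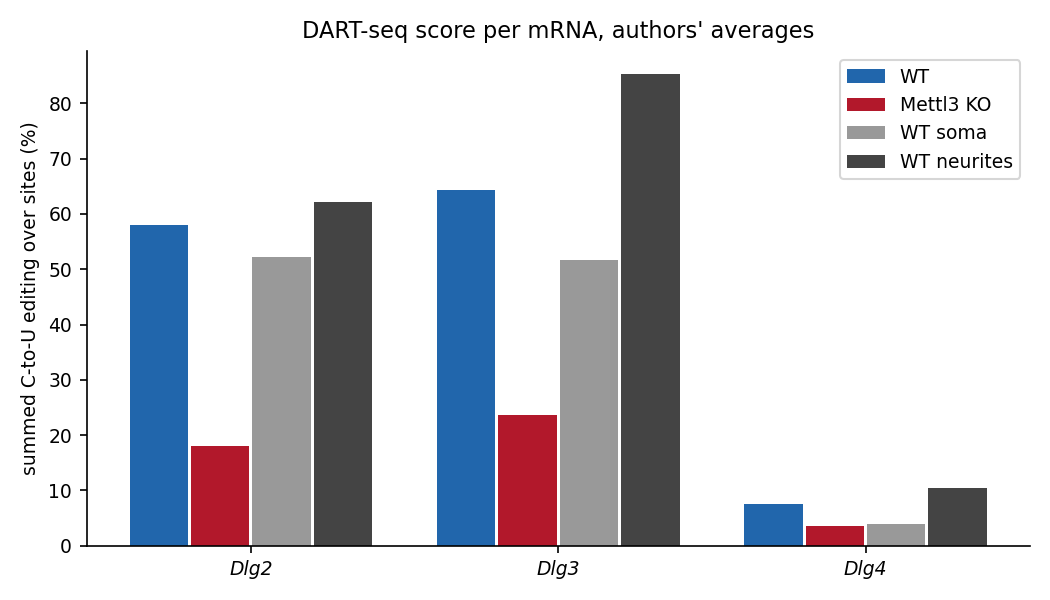
Summed C2U editing per mRNA in percent, as the authors' averages for WT, Mettl3 KO, WT soma and WT neurites. Dlg3 and Dlg2 have WT scores of 64.3% and 58.0% and Dlg4 of 7.55%, and for each mRNA the neurite bar is higher than the soma bar. The averages have no error bars.

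The RNA-seq libraries held 3.38e+07 to 7.14e+07 counted fragments. Levels are given as CPM, the counts of a gene scaled by the library total with TMM factors over all 16 libraries. The markers of neurons were detected in every library, with a summed level of 1132 to 6775 CPM over 10 genes. The markers of astrocytes (11 genes) summed to 1238 to 1769 CPM in WT soma, 2171 to 3334 CPM in WT neurites, 2016 to 10308 CPM in Mettl3 KO soma and 2964 to 19870 CPM in Mettl3 KO neurites. The insert labelled Mettl3 KO KCl replicate 1 stood apart in both fractions. Its oligodendrocyte lineage markers (7 genes) summed to 3630 CPM in soma and 7260 CPM in neurites against 58.7 to 192 CPM elsewhere, and its neuron markers gave the 2 lowest sums, 1982 and 1132 CPM. The microglia markers (7 genes) summed to 236 and 173 CPM there and to at most 34.7 CPM elsewhere, and the fibroblast and vascular markers (12 genes) to 148 and 769 CPM there and at most 102 CPM elsewhere. Every marker gene had counts in every library. Fos, an immediate early gene that depolarization induces, was at 12.4 to 19.9 CPM in the WT Ctrl libraries and at 1691 to 3204 CPM in the WT KCl libraries.

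Mettl3 itself, the methyltransferase gene targeted by the deletion, was lower in Mettl3 KO than in WT at matched fraction and treatment but was still measured. WT soma Ctrl held 16.7 and 16.2 CPM and Mettl3 KO soma Ctrl 8.94 and 11.0 CPM. WT neurite Ctrl held 12.01 and 12.5 CPM and Mettl3 KO neurite Ctrl 3.91 and 6.76 CPM. After KCl the soma values were 15.5 and 13.5 CPM in WT against 9.24 and 6.18 CPM in Mettl3 KO, and the neurite values were 11.1 and 9.05 CPM against 8.24 and 3.99 CPM. The 2 genotypes did not overlap in any of these pairs of groups, but no change passed the threshold after adjustment (log2 change -1.19 ± 0.39 SE, adjusted p = 0.42 in Ctrl neurites). The loxP sites flank exon 4, and counts over the whole gene also take in the other exons, so they do not measure the deletion itself.

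Among the Dlg mRNAs, Dlg4 and Dlg2 were abundant and Dlg3 and Dlg1 were scarce. Levels were compared between genes per kilobase of exon. This length takes in the exons of all annotated transcripts and can differ from that of the mRNA expressed, so the comparison is approximate. WT soma Ctrl held 10.9 ± 0.17 CPM per kb of Dlg4 (SD, n = 2), 7.12 ± 0.53 of Dlg2, 2.60 ± 0.38 of Dlg3 and 0.462 ± 0.026 of Dlg1. WT neurite Ctrl held 22.5 ± 3.4 of Dlg4, 17.6 ± 3.7 of Dlg2, 2.57 ± 0.47 of Dlg3 and 0.644 ± 0.095 of Dlg1. The order Dlg4, Dlg2, Dlg3, Dlg1 held in 14 of the 16 libraries. The exceptions were WT soma KCl replicate 1, where Dlg2 was above Dlg4, and Mettl3 KO neurite KCl replicate 1, where Dlg1 was above Dlg3. In WT, Dlg4 and Dlg2 overlapped between libraries in neurite Ctrl and in soma KCl, whereas Dlg3 and Dlg1 did not overlap in any WT group. In the WT groups, Dlg4 made up 42.9% to 52.1% of the summed Dlg level per kilobase and Dlg2 33.7% to 43.5%. In the Mettl3 KO groups, Dlg4 made up 65.4% to 72.4% and Dlg2 15.3% to 18.9%.

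**Figure D3:**
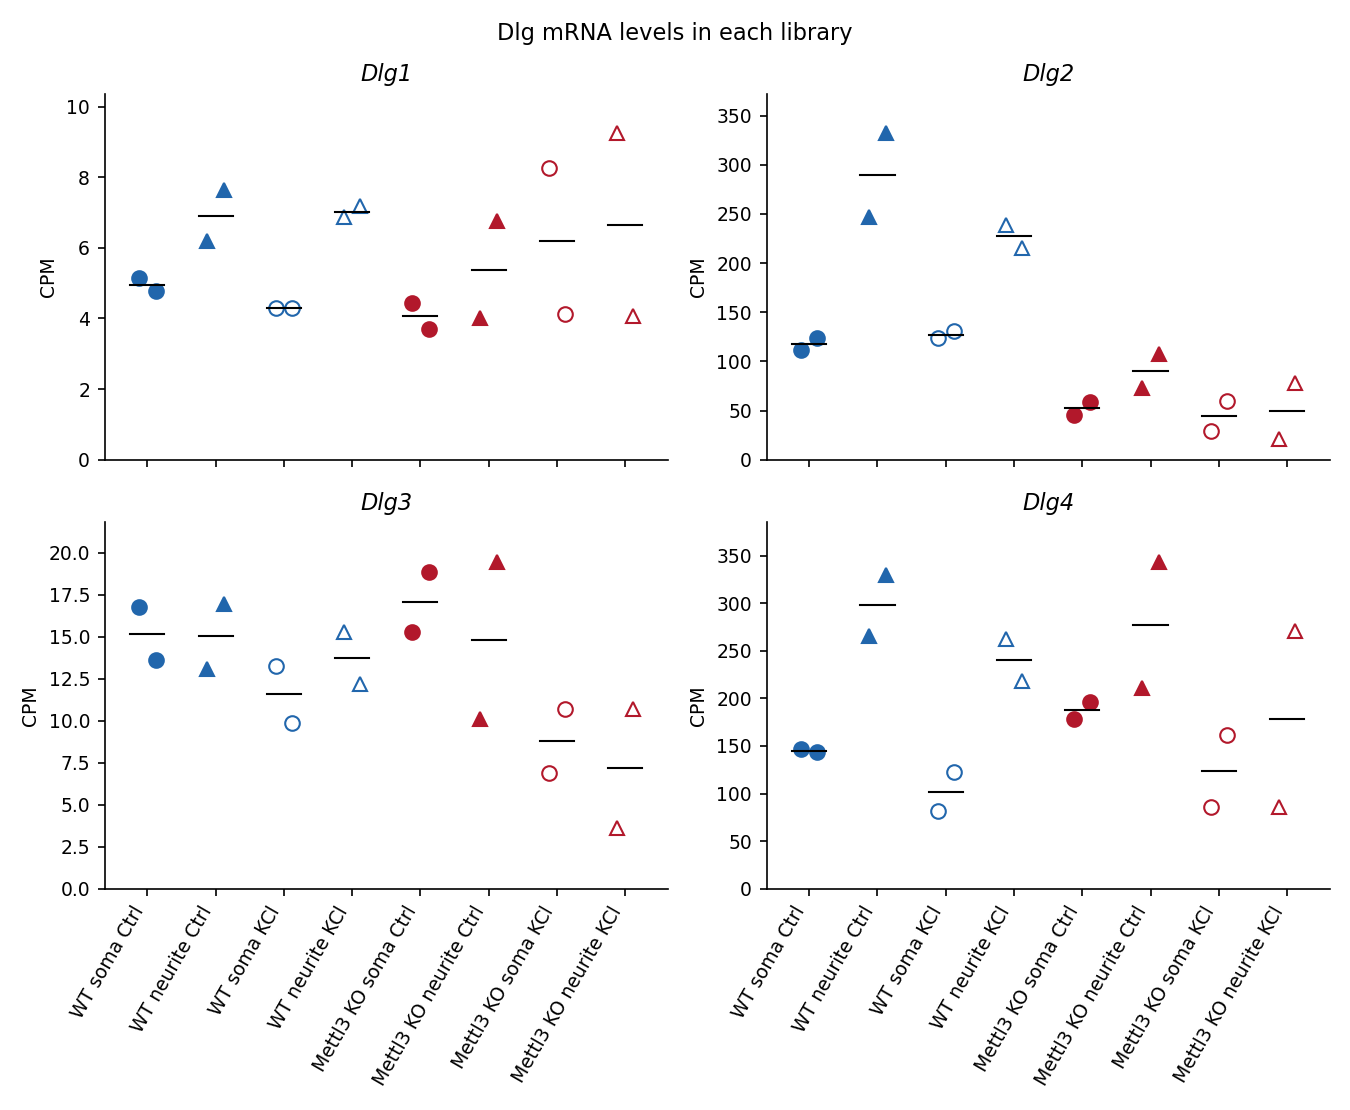
CPM of the 4 Dlg mRNAs in each of 16 libraries, by group (blue, WT; red, Mettl3 KO; circles, soma; triangles, neurites; filled, Ctrl; open, KCl; lines, group means of 2). Dlg2 and Dlg4 are higher in WT neurites than in WT soma, and every Mettl3 KO library lies below every WT library for Dlg2.

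Neurite enrichment was tested by comparing neurites with soma in WT neurons. Dlg4 held 146 and 143 CPM in WT soma Ctrl and 266 and 329 CPM in WT neurite Ctrl. Neurites were 1.93-fold above soma (log2 FC 0.95 ± 0.19 SE, edgeR adjusted p = 0.0085). Dlg2 held 111 and 124 CPM in soma and 246 and 333 CPM in neurites, and was 2.31-fold higher in neurites (log2 FC 1.21 ± 0.15, adjusted p = 0.00066). For both mRNAs each neurite library exceeded both soma libraries. With 2 libraries a group such an order carries little weight. Its share over all genes was not counted, here or for the pairs of groups described below.

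Dlg3 and Dlg1 did not pass the threshold in Ctrl. Dlg3, the transcript of SAP102, held 16.7 and 13.6 CPM in soma and 13.1 and 17.0 CPM in neurites, which overlap (log2 FC -0.11 ± 0.20, adjusted p = 0.72). Dlg1 held 5.15 and 4.77 CPM in soma and 6.19 and 7.64 CPM in neurites, without overlap, and its log2 FC was 0.38 ± 0.18 (adjusted p = 0.16). Thus 2 of the 4 Dlg mRNAs were called, both higher in neurites, where 13.6% of the 23200 genes tested were called in either direction, 9.01% as higher and 4.54% as lower in neurites.

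After KCl, 3 of the 4 were called, all higher in neurites, beside 9.60% of 23028 genes in either direction, 6.87% higher and 2.73% lower. Dlg4 held 81.3 and 123 CPM in WT soma KCl and 262 and 218 CPM in WT neurite KCl (log2 FC 1.25 ± 0.19, adjusted p = 0.0031). Dlg2 held 123 and 131 CPM in soma and 239 and 216 CPM in neurites (log2 FC 0.86 ± 0.15, adjusted p = 0.0051). Dlg1 held 4.31 and 4.30 CPM in soma and 6.86 and 7.19 CPM in neurites (log2 FC 0.72 ± 0.18, adjusted p = 0.025). Dlg3 held 13.3 and 9.86 CPM in soma and 15.3 and 12.2 CPM in neurites, which overlap (log2 FC 0.27 ± 0.20, adjusted p = 0.43). Over Ctrl and KCl together, all 4 WT neurite libraries lay above all 4 WT soma libraries for Dlg1, Dlg2 and Dlg4 but not for Dlg3. The same held for 15.0% of 23335 genes.

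The WT calls rest on the spread within the 8 WT libraries. Fitted with all 16 libraries, whose Mettl3 KO replicates spread more, edgeR called no gene in either WT comparison, and the adjusted p of Dlg2 and Dlg4 was 0.59 and 0.67 in Ctrl and 0.98 and 0.84 after KCl. Single libraries decided 3 of the 5 calls at the adjusted threshold. Dlg4 in Ctrl had an adjusted p of 0.058 without WT soma Ctrl replicate 2 and 0.063 without WT neurite Ctrl replicate 2, Dlg2 after KCl had 0.059 without WT neurite KCl replicate 1, and Dlg1 after KCl had 0.054 to 0.12 when any one of the 4 libraries was left out. The direction stayed positive in all of these. The astrocyte marker sums given above also did not overlap between WT soma and WT neurites, and their part in the Dlg values was not tested. In bulk fractions, fewer cells of a type and less RNA per cell cannot be told apart.

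To compare the genes with each other, the log2 ratio of neurites to soma was taken for each insert, pairing the libraries with the same replicate number. In the 4 WT inserts the ratio averaged 1.15 ± 0.40 for Dlg4 (SD, n = 4), 1.06 ± 0.30 for Dlg2, 0.59 ± 0.22 for Dlg1 and 0.12 ± 0.32 for Dlg3. Over all 8 inserts it was above 0 in 8 for Dlg4, in 7 for Dlg2, in 6 for Dlg1 and in 5 for Dlg3.

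In 8 of 8 inserts Dlg4 exceeded Dlg3, by 0.92 ± 0.30 on the log2 scale (exact sign-flip permutation test, two-sided, p = 0.0078, which is the smallest that 8 inserts allow, and adjusted p = 0.023 over 6 pairs). Dlg2 also exceeded Dlg3 in 8 of 8 (0.83 ± 0.43, exact p = 0.0078, adjusted p = 0.023), and Dlg1 exceeded Dlg3 in 7 of 8 (0.53 ± 0.33, exact p = 0.016, adjusted p = 0.031). The last of these was lost (adjusted p = 0.063, exact test) without any 1 of the 4 WT inserts or of the 2 Mettl3 KO Ctrl inserts. Dlg4 and Dlg2 differed by 0.09 ± 0.41, with Dlg4 above in 4 of 8 (exact p = 0.55). Dlg4 exceeded Dlg1 by 0.40 ± 0.41 in 6 of 8 (adjusted p = 0.070, exact test), and Dlg2 exceeded Dlg1 by 0.31 ± 0.53 in 6 of 8 (adjusted p = 0.14, exact test). With the 4 WT inserts alone no pair can pass, because the smallest exact p is 0.13, and the differences from Dlg3 were then 1.03 for Dlg4, 0.95 for Dlg2 and 0.47 for Dlg1, each positive in 4 of 4. Ctrl and KCl inserts came from the same litters, so the 8 inserts are not 8 independent litters. The exact p-values over 8 inserts take each insert as independent. With 4 litters as the units no pair could pass, since the smallest exact p would again be 0.13.

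**Figure D4:**
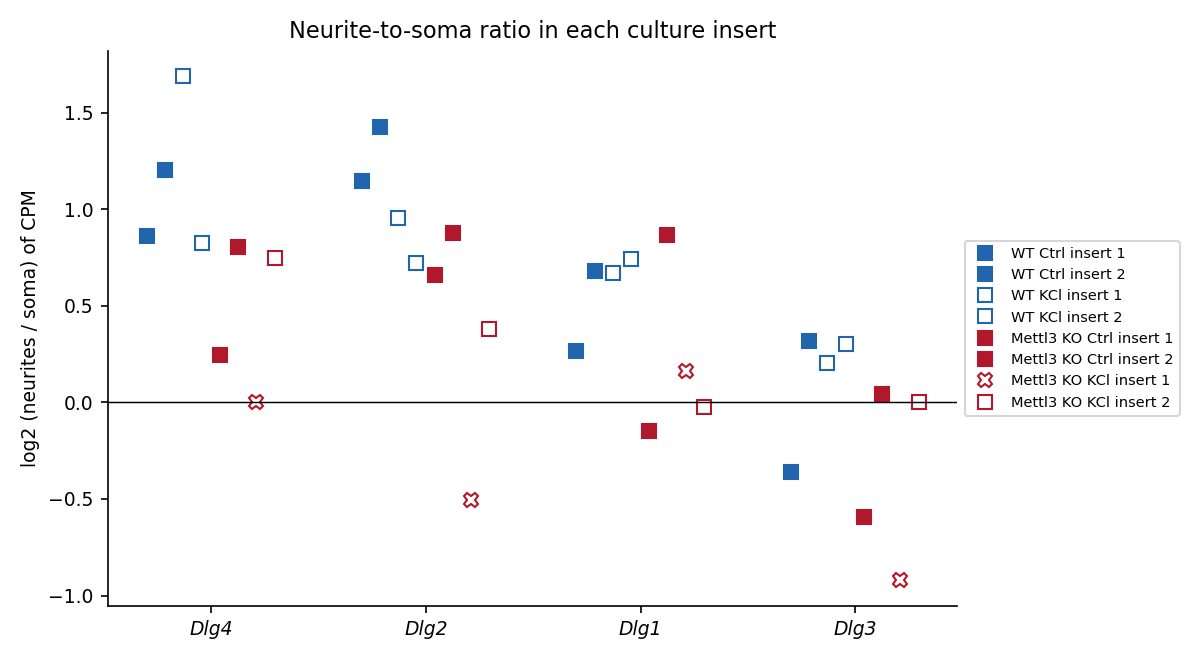
Log2 ratio of neurite to soma CPM for each culture insert (blue, WT; red, Mettl3 KO; filled, Ctrl; open, KCl; cross, Mettl3 KO KCl insert 1, which stands apart), with genes in the order of their mean. Dlg4 and Dlg2 lie above Dlg3 in all 8 inserts, and Dlg3 spreads around 0.

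The response to KCl was tested next, within soma and within neurites of WT neurons, at a 2-fold threshold. No Dlg mRNA passed it in either fraction, where 6.70% of 24060 genes were called in soma (3.74% higher and 2.96% lower) and 5.03% of 22059 in neurites (3.33% higher and 1.70% lower). Dlg4 held 146 and 143 CPM in WT soma Ctrl and 81.3 and 123 CPM in WT soma KCl. These values do not overlap, but the log2 change of -0.58 ± 0.19 gave an adjusted p of 0.074. It was -0.28 (adjusted p = 0.27) without WT soma KCl replicate 1 and -0.92 (adjusted p = 0.0032, under 2-fold) without replicate 2. In soma the log2 change was -0.47 ± 0.20 for Dlg3 (adjusted p = 0.17), -0.28 ± 0.18 for Dlg1 (adjusted p = 0.37) and 0.04 ± 0.15 for Dlg2 (adjusted p = 0.91). The value of Dlg3 ran from -0.67 to -0.24 with 1 of the 4 libraries left out, the ends being without WT soma KCl replicate 1 and without WT soma Ctrl replicate 1, and was -0.28 without WT soma KCl replicate 2. In neurites the log2 changes ran from -0.31 ± 0.15 for Dlg2 to 0.06 ± 0.18 for Dlg1, with adjusted p of 0.24 and above.

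The change in neurite enrichment with KCl (ΔFC N/S) was not called for any Dlg mRNA at 1.5-fold and an unadjusted p of 0.05, where 3.36% of 23200 genes were called. A gain was called for 2.00% (465 genes) and a loss for 1.35% (314 genes), against 343 and 447 genes with RLE scaling. On the log2 scale ΔFC N/S was 0.33 ± 0.29 SE for Dlg4, -0.34 ± 0.20 for Dlg2, 0.39 ± 0.26 for Dlg3 and 0.35 ± 0.28 for Dlg1, each with an edgeR adjusted p of 0.999. The value of Dlg4 depended on KCl insert 1, whose log2 ratio was 1.69 against 0.83 in KCl insert 2. It was called at 0.79 without either library of KCl insert 2 and was -0.11 or -0.13 without a library of KCl insert 1. Dlg3 was called at 0.72 without WT neurite Ctrl replicate 2.

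The effect of Mettl3 loss was compared at matched fraction and treatment, with all 16 libraries in the fit. Dlg2 was the Dlg mRNA that stood lowest in Mettl3 KO. In soma Ctrl it held 111 and 124 CPM in WT and 45.8 and 58.6 CPM in Mettl3 KO, and in neurite Ctrl 246 and 333 CPM in WT and 72.5 and 108 CPM in Mettl3 KO. In soma KCl it held 123 and 131 CPM in WT and 29.5 and 60.05 CPM in Mettl3 KO, and in neurite KCl 239 and 216 CPM in WT and 20.8 and 78.2 CPM in Mettl3 KO. The highest of the 8 Mettl3 KO libraries (108 CPM, in neurites) was below the lowest of the 8 WT libraries (111 CPM, in soma). Of 23335 genes, 3.92% had all 4 Mettl3 KO libraries below all 4 WT libraries in soma and again in neurites, and Dlg2 was the only Dlg gene among them. In soma alone 7.78% of genes had such an order and in neurites alone 8.20%, and 2.37% lay above WT in both, none of them a Dlg gene.

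The estimated fold differences of Dlg2 were 2.25 in soma Ctrl, 3.21 in neurite Ctrl, 2.84 in soma KCl and 4.60 in neurite KCl, all lower in Mettl3 KO. None passed the adjusted threshold, which 0.185%, 0.188%, 0.212% and 0.440% of genes passed in these comparisons (0.0632%, 0.0642%, 0.0458% and 0.102% higher, and 0.122%, 0.124%, 0.166% and 0.338% lower). The log2 changes were -1.17 ± 0.50 SE (edgeR adjusted p = 0.51), -1.68 ± 0.50 (adjusted p = 0.34), -1.51 ± 0.51 (adjusted p = 0.25) and -2.20 ± 0.53 (adjusted p = 0.089) in the same order.

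Without the 2 libraries of Mettl3 KO KCl insert 1, Dlg2 was called in both Ctrl comparisons, at -1.20 in soma (adjusted p = 0.040) and -1.66 in neurites (adjusted p = 0.016). In the KCl comparisons, leaving out that insert's library in the fraction compared left a log2 change of -1.07 in soma (adjusted p = 1.00) and -1.52 in neurites (adjusted p = 0.28), with 1 Mettl3 KO library assumed to vary like the other groups. Leaving out the library of insert 2 instead gave -2.12 in soma (adjusted p = 0.11) and -3.48 in neurites (adjusted p = 0.0036, called). In KCl neurites, where DESeq2 gave an adjusted p of 0.0032, the replicate number as a block gave 0.023. The astrocyte marker sums were higher in all 4 Mettl3 KO soma libraries than in the 4 WT soma libraries, and the neuron marker sums were 3580 and 4402 CPM in Mettl3 KO soma Ctrl against 4137 and 4335 CPM in WT soma Ctrl. In neurite Ctrl the neuron marker sums were 3604 and 4088 CPM in Mettl3 KO and 5450 and 6254 CPM in WT. Their part in the Dlg2 difference was not tested. Loss of Mettl3 and other differences between the flox line and C57BL/6 cannot be told apart in this design.

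The other 3 Dlg mRNAs had smaller estimated differences, also uncalled, and whether they differed from Dlg2 in this was not tested. Dlg4 held 178 and 197 CPM in Mettl3 KO soma Ctrl and 211 and 344 CPM in Mettl3 KO neurite Ctrl. The soma values were above both WT libraries (146 and 143 CPM), the neurite values overlapped with WT, and the log2 changes were 0.37 ± 0.47 (adjusted p = 0.86) and -0.10 ± 0.47 (adjusted p = 0.997). After KCl they were 0.27 ± 0.47 in soma (adjusted p = 0.83) and -0.43 ± 0.48 in neurites (adjusted p = 0.61). Dlg3 ranged from -0.95 ± 0.48 in neurite KCl (adjusted p = 0.25) to 0.17 ± 0.47 in soma Ctrl (adjusted p = 0.94), and Dlg1 from -0.36 ± 0.45 in neurite Ctrl (adjusted p = 0.96) to 0.52 ± 0.44 in soma KCl (adjusted p = 0.61). In neurite KCl, Dlg3 held 15.3 and 12.2 CPM in WT and 3.62 and 10.7 CPM in Mettl3 KO, which do not overlap. The highest Dlg1 values of all libraries, 8.26 and 9.26 CPM, were those of Mettl3 KO KCl insert 1, against 4.13 and 4.06 CPM in insert 2.

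**Figure D5:**
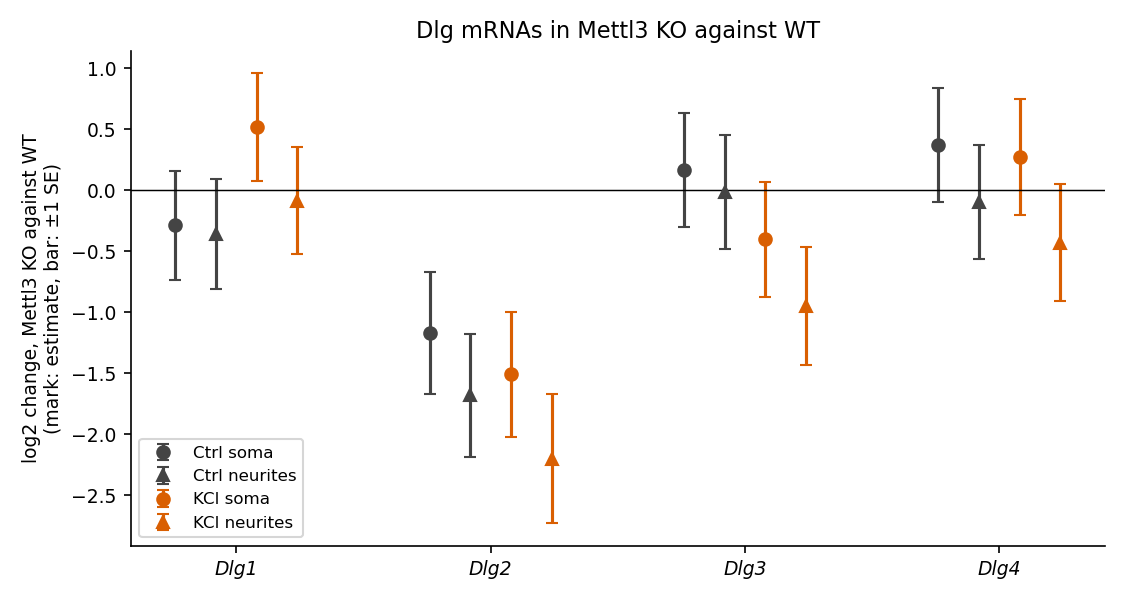
Log2 change of each Dlg mRNA in Mettl3 KO against WT in 4 comparisons (circles, soma; triangles, neurites; grey, Ctrl; orange, KCl; bars, ± 1 SE of the edgeR estimate). Dlg2 lies between -1.17 and -2.20, while the estimates of the other 3 genes lie between -0.95 and 0.52.

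Neurite enrichment was also tested within Mettl3 KO neurons. No gene of 22557 in Ctrl or 23152 after KCl passed the adjusted edgeR threshold (0.00% called), although at an unadjusted p of 0.05 edgeR called 2100 higher and 1054 lower in Ctrl and 202 and 254 after KCl. DESeq2 called 961 genes in Ctrl and 1 after KCl. Without Mettl3 KO soma Ctrl replicate 1, edgeR called 3118 genes in Ctrl (2501 higher and 617 lower), none of them a Dlg gene. In Ctrl the log2 FC was 0.79 ± 0.49 for Dlg2 (adjusted p = 0.49), 0.57 ± 0.47 for Dlg4 (adjusted p = 0.61), 0.41 ± 0.45 for Dlg1 (adjusted p = 0.72) and -0.20 ± 0.47 for Dlg3 (adjusted p = 0.88). After KCl the estimates ran from -0.29 ± 0.48 for Dlg3 to 0.54 ± 0.49 for Dlg4, and Dlg2 was at 0.15 ± 0.51.

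Whether enrichment differed between the genotypes was tested in Ctrl with 1 term per insert. ΔFC N/S was negative for all 4 mRNAs and called for none, where 4.19% of 22942 genes were called (2.91% with a gain and 1.28% with a loss). It was -0.52 ± 0.34 SE for Dlg2, -0.51 ± 0.40 for Dlg4, -0.25 ± 0.43 for Dlg3 and -0.11 ± 0.43 for Dlg1, with edgeR adjusted p of 0.940, 0.966, 0.987 and 0.992. The median over all genes was -0.03. The log2 ratio of Dlg2 was 0.66 and 0.88 in the Mettl3 KO Ctrl inserts and 1.15 and 1.43 in the WT Ctrl inserts. That of Dlg4 was 0.25 and 0.81 against 0.86 and 1.20. With 2 inserts per genotype such an order carries little weight, and its share over all genes was not counted.

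Genes that work with the Dlg proteins were counted in the same fits, as lists with no test of their own. Among 7 genes whose proteins bind the guanylate kinase domain of PSD-95, 4 were called as higher in WT neurite Ctrl and none as lower. Over all genes 9.01% were called as higher and 4.54% as lower. The median log2 FC of the 7 was 0.60 beside -0.10 over all genes. The lists were chosen with earlier results of these data known. Map1a, a microtubule-associated protein gene, rose from 383 ± 32 CPM in soma to 1204 ± 166 CPM in neurites (SD, n = 2 each, log2 FC 1.56, adjusted p = 0.0033). Dlgap3, which encodes SAPAP3, a link between PSD-95 and the Shank scaffolds, rose from 89.7 ± 3.1 to 263 ± 1.8 CPM (log2 FC 1.46, adjusted p = 0.010). Begain rose from 12.7 ± 1.8 to 25.9 ± 5.3 CPM (log2 FC 0.93, adjusted p = 0.0051). Sipa1l1, a GTPase-activating protein gene for Rap, rose from 121 ± 8.7 to 196 ± 16 CPM (log2 FC 0.60, adjusted p = 0.011). After KCl 5 of the 7 were called as higher, these 4 and Dlgap4 (log2 FC 0.60, adjusted p = 0.0054), beside 6.87% of all genes. Their median was then 0.61.

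The counts of the other lists are read beside the 9.01% of all genes called as higher and the 4.54% called as lower in WT Ctrl. Of 16 genes for ligands of the PSD-95 PDZ domains, such as NMDA receptor subunits and neuroligins, 1 was called in WT Ctrl. This was Iqsec2, an exchange factor gene for Arf GTPases, at 32.9 ± 0.93 CPM in soma and 71.2 ± 10 CPM in neurites (log2 FC 1.02, adjusted p = 0.0019), and the list's median was 0.05. Among 13 other genes for membrane-associated guanylate kinases, Mpp3 was lower in neurites, at 122 ± 7.5 CPM in soma and 83.7 ± 5.3 CPM in neurites (log2 FC -0.63, adjusted p = 0.0045), and the list's median was -0.10. Of 7 genes of the palmitoylation cycle that anchors PSD-95 in the membrane, 1 was called, the depalmitoylase gene Abhd17a, at 28.8 ± 3.2 CPM in soma and 67.9 ± 9.7 CPM in neurites (log2 FC 1.14, adjusted p = 0.0014). None of 7 genes for regulators of the Dlg4 mRNA was called in Ctrl, and their median was -0.25. After KCl 1 of the 7, Ptbp1, a repressor of Dlg4 splicing, was called as lower in neurites (log2 FC -0.60, adjusted p = 0.013), beside 2.73% of all genes.

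In Mettl3 KO against WT none of the genes in these 5 lists was called in any of the 4 comparisons. Only 0.185% to 0.440% of all genes were called there, so the absence of a call says little about lists of this size. The median of the 16 genes for PDZ ligands was -0.44 in soma Ctrl, -0.65 in neurite Ctrl, -0.85 in soma KCl and -1.03 in neurite KCl, where the medians over all genes lay between 0.01 and 0.09. The 10 neuron markers had medians of -0.16, -0.59, -0.71 and -0.88 in the same comparisons and the 11 astrocyte markers of 0.95, 0.86, 2.03 and 1.87, and their part in the values of the lists was not tested. The medians of the 7 genes for guanylate kinase domain partners were 0.30, -0.26, -0.13 and -0.83 in the same order. The 13 other membrane-associated guanylate kinase genes had medians of 0.07, -0.15, 0.55 and 0.30.

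The genes most like each Dlg gene across the 8 WT libraries were found by Pearson correlation of log2 CPM among 12335 protein-coding genes that averaged 100 counts or more. The libraries share litters and fractions, and the coefficients describe them only. For Dlg4 the 3 closest were Kctd17 (r = 0.999), Phf2 (0.997) and Srcin1 (0.995). For Dlg2 they were Pdxk (0.997), Pacsin1 (0.995) and Ptpa (0.992), and for Dlg1 Ppp3ca (0.992), Ica1l (0.991) and Dok4 (0.988). The closest to Dlg3 had lower coefficients, with Naa80 at 0.964, Snx25 at 0.960 and Smurf2 at 0.936. Among themselves, Dlg1, Dlg2 and Dlg4 correlated at 0.904 to 0.925, and Dlg3 correlated with the other 3 at 0.287 to 0.456.

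The genes lie apart in the genome (GRCm38), all on the plus strand. Dlg1 spans chr16:31663443-31875129, Dlg2 chr7:90476672-92449247, Dlg3 chrX:100767722-100818410 and Dlg4 chr11:70016942-70047522. Dlg1, Dlg3 and Dlg4 share no exon bases with another annotated gene. Dlg2 shares 225 exon bases (1.37% of its exons) with the noncoding genes Gm45159 and Gm45131 on the same strand, so that reads from these bases cannot be assigned with certainty.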

How the data were processed

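RNA-seq was done in 16 libraries (2 in each of 8 groups). The authors aligned reads to mm10 with STAR 2.7.7a and counted fragments on exons with featureCounts 2.0.1 without a strand option and with reads that map to several places included, per the file headers. The deposited counts are raw. The authors' DESeq2 tables hold a mean signal scaled by size factors, log2 fold changes and p-values, and were used here only for symbols and biotypes. DART-seq sites were called by the authors with Bullseye against the Mettl3 KO libraries. The deposited site values are C2U fractions averaged over the WT libraries, and the scores per RNA are the authors' sums of such fractions, given here as percent. Their read depth is unknown and replicates were pooled, so they were not tested.

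The members and lists were chosen with earlier results of these data known, and so was the use of the 8 WT libraries for WT comparisons. Genes averaging 10 counts or more were fitted in edgeR 4.0.16 (R 4.3.3, TMM, quasi-likelihood F-test, Benjamini-Hochberg over all genes tested), without mitochondrial genes. WT comparisons used the 8 WT libraries and Mettl3 KO comparisons all 16. A call took a 1.5-fold change (2-fold for KCl) and an adjusted p up to 0.05, or for ΔFC N/S a 1.5-fold change and an unadjusted p up to 0.05, which had 1 term per insert. Insert ratios added 0.5 to counts. CPM per kb used the deposited exon length. The SE of a log2 change was derived from the edgeR test, as its absolute value over the square root of the F statistic. The fits were tested on simulated data that varied about as much as the WT libraries. The Mettl3 KO libraries varied more, so that test does not cover the fits that include them. Replicate pairs of each group differed by more than counting noise, so none was treated as a duplicate. Alternatives covered the libraries fitted, DESeq2 1.42.0, limma 3.58.1, RLE scaling, the count filter, the replicate block and each replicate left out.

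Named genes were the Dlg genes, Mettl3, up to 4 called genes per list with the largest WT Ctrl change, and the 3 genes most like each Dlg gene. A gene that this rule names is not reported here. Fos, Dlgap4 and Ptbp1 were named after their values were seen. Places, regions and sequences came from GRCm38 with GENCODE M21. The reference transcript was the principal isoform. With 2 replicates a group, p-values measure the spread between these litters only.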

Additional observations from a re-analysis of the deposited data

How the results depend on the processing

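The counts of called Dlg genes changed under these settings, and the cause was not tested unless stated. With 16 libraries, the count fell from 2 to 0 in WT Ctrl and from 3 to 0 in WT KCl neurites against soma, and all genes called fell from 3145 and 2211 to 0. For Mettl3 KO against WT, where the main count was 0, it was 1 (Dlg2) in Ctrl soma and Ctrl neurites without KCl-treated Mettl3 KO insert 1, in Ctrl neurites with the comparison alone and with limma, and in KCl neurites with DESeq2, without a count filter and with the replicate block (390 genes called against 99). Counts over all genes moved by more than 1.5-fold in Mettl3 KO against WT: from 44 in Ctrl soma, 41 in Ctrl neurites, 51 in KCl soma and 99 in KCl neurites to 417, 313, 1016 and 2596 with DESeq2, to 0, 136, 0 and 0 with the comparison alone, and to 419 and 270 in Ctrl without that insert. limma gave 19 in Ctrl soma, 546 in Ctrl neurites and 11 in KCl neurites, and no filter gave 72, 178 and 153 in Ctrl soma, KCl soma and KCl neurites. For KCl against Ctrl, 1611 genes in soma and 1109 in neurites became 341 and 263 with 16 libraries and 1040 and 643 at a mean count of 100, and 1776 in neurites without a filter. For ΔFC N/S with KCl, 779 became 291 with 16 libraries, 498 with DESeq2, 1457 without a filter and 425 at a mean count of 100. For ΔFC N/S in Mettl3 KO, 962 became 347, 1584, 2667 and 569 with the comparison alone, DESeq2, no filter and a mean count of 100, and 296 without the replicate block. In Mettl3 KO neurites against soma, 0 became 196 without that insert, 961 with DESeq2, 69 without a filter and 1 with the replicate block in Ctrl, and 1 with DESeq2 after KCl. Between Dlg genes, 3 of 6 pairs passed, and 0 with the WT inserts only, since 4 inserts cannot reach the threshold.

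Leaving out 1 replicate gave counts of 1 to 2 in WT Ctrl, 1 to 2 in WT KCl, 0 to 1 for ΔFC N/S with KCl, and 0 to 3 in KCl neurites of Mettl3 KO against WT (Dlg2, Dlg3 and Dlg4 without Mettl3 KO neurite KCl replicate 2, where 1 library was assumed to vary like the others). Over all genes, these counts ran from 1068 (without WT soma Ctrl replicate 2) to 3694 in WT Ctrl and from 752 (without WT neurite KCl replicate 1) to 2395 in WT KCl. In Mettl3 KO against WT they ran from 4 to 2705 in Ctrl soma (the highest without Mettl3 KO soma Ctrl replicate 1), 4 to 14 in Ctrl neurites, 8 to 172 in KCl soma and 10 to 7239 in KCl neurites (the highest in both without Mettl3 KO KCl replicate 2). Uncalled log2 values changed sign. Dlg3 in Ctrl neurites of Mettl3 KO against WT (-0.016) was 0.0068 with DESeq2 and RLE scaling, 0.018 at a mean count of 100 and 0.0051 without KCl-treated Mettl3 KO insert 1, and Dlg2 neurite enrichment in Mettl3 KO KCl was -0.12 with limma.

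Values that changed sign when 1 replicate was left out had these ranges. In WT neurites against soma Ctrl, Dlg3 ran from -0.31 to 0.12. For KCl against Ctrl, Dlg2 in soma ran from -0.014 to 0.19, and in neurites Dlg1 from -0.084 to 0.21 and Dlg3 from -0.27 to 0.10. For ΔFC N/S with KCl, Dlg3 ran from -0.052 to 0.72 and Dlg4 from -0.13 to 0.79. For Mettl3 KO against WT, Dlg3 ran from -0.021 to 0.33 in Ctrl soma and from -0.54 to 0.39 in Ctrl neurites, Dlg4 from -0.47 to 0.22 in Ctrl neurites, from -0.27 to 0.67 in KCl soma and from -1.51 to 0.20 in KCl neurites, and Dlg1 from -0.046 to 0.93 in KCl soma and from -0.77 to 0.37 in KCl neurites. In Mettl3 KO neurites against soma, Dlg1 ran from -0.050 to 0.74 and Dlg3 from -0.79 to 0.20 in Ctrl, and after KCl Dlg1 from -0.56 to 0.62, Dlg2 from -1.14 to 0.84, Dlg3 from -1.31 to 0.33 and Dlg4 from -0.56 to 1.17. For ΔFC N/S in Mettl3 KO, Dlg1 ran from -0.62 to 0.40 and Dlg3 from -0.59 to 0.10. The difference of Dlg4 from Dlg2 ran from -0.0030 to 0.16 with each insert left out. Dlg2 in the 4 Mettl3 KO comparisons stayed negative under every alternative run.

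Replicate numbers are shared labels here. Between soma and neurites, the differences of replicate 1 from 2 had correlations of -0.14 in WT Ctrl, 0.015 in WT KCl, 0.072 in Mettl3 KO Ctrl and 0.90 in Mettl3 KO KCl (15170 genes). Apart from KCl neurites of Mettl3 KO against WT, the replicate block, or its removal for ΔFC N/S, changed no Dlg call, and with the WT Ctrl numbers crossed (chosen after seeing the data) the counts were 2 in WT Ctrl and 0 in the other comparisons with WT neurite Ctrl.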
